A study of Homo sapiens with 12 samples.

Results

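The genes described here govern the placing and removal of DNA methylation and the metabolite that links them to IDH1: IDH1, IDH2, D2HGDH, TET1, TET2, TET3, DNMT1, DNMT3A and DNMT3B. They were chosen by name, since HT1080, an established human fibrosarcoma line, carries a mutant IDH1, and they are 9 of the 20033 protein-coding genes of the RefSeq gene table (GRCh38.p14). An accessible site was assigned to a gene when its summit lay inside the gene or within 10 kb of it. This gave 73 of the 188019 summits in the deposited list, in 59 intervals.

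IDH1 (in the cytosol) and IDH2 (in mitochondria) convert isocitrate to 2-oxoglutarate. Mutant IDH1 instead makes D-2-hydroxyglutarate, which competes with 2-oxoglutarate at enzymes that need it, and D2HGDH converts D-2-hydroxyglutarate back. The TET dioxygenases are such enzymes: they oxidise 5-methylcytosine as a step towards its removal. DNMT1 copies methylation onto new DNA after replication, and DNMT3A and DNMT3B place it on unmethylated sites.

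Accessibility was read by ATAC-seq, where a transposase inserts adapters into open chromatin. HT1080 cells were kept for 48 h in gels of type I collagen from rat tail, made at 0.3 (low), 1 (medium) or 1.7 mg/mL (high), with 4 libraries at each concentration and 12 in all. All 3 groups received 20 µM GM6001, a broad inhibitor of matrix metalloproteinases, and all cells were freed with collagenase and frozen before the assay. The list holds 1 pooled value per summit and names no library or concentration, so nothing below compares concentrations, there are no replicates, and the depth per library is unknown.

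Each summit carries the authors' enrichment, a ratio of fragments over the local background. From it and the p-value the pileup (the number of fragments that overlap at the summit) and the background were recovered. The submitters give no settings, so whether whole fragments or single reads were counted is not known. The word fragments stands for that unit throughout. Whole-number pileups, within 0.05, came out for 99.96% of lines. The lowest and most frequent background, 20.3 fragments, is called the genome-wide background, and 53.0% of lines lay within 0.2% of it. Pileups are given with exact 95% Poisson intervals, which cover counting error only, since fragments may include PCR copies. The intervals are too narrow if both reads of a fragment were counted. As a check of the line, 7 of 8 mesenchymal genes had one or more summits no farther than 1000 bp from either gene end, among them VIM and FN1 but not COL1A1. Of 6 epithelial genes 2 had one, EPCAM with an enrichment of 2.11 and KRT18 with 1.75. The endothelial genes PECAM1 and CDH5 had none, while 2 of 4 blood genes did, CD3E (14.5) and SPI1 (8.44). Over all protein-coding genes the share was 65.7%.

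The sequences at the starts on which the results turn are shown first. Each stretch runs 5′ to 3′ on the gene's strand, from 250 bases before an annotated start through the first 10 bases from it, and was taken from RefSeq (GRCh38.p14), which lists 19 such windows for the 9 genes. Capitals mark matches, on either strand, to any of 9 motifs. The GC box was searched as GGGCGG, the core bound by ETS factors as CCGGAAG, the NF-Y box as CCAAT and the cAMP response element (CRE) as TGACGTCA. The AP-1 element was searched as TGANTCA, the E2F site as TTTNGCGC, the YY1 site as ATGGCGGC and the TATA box as TATAAA, and NRF1 by its palindromic consensus. A match is a string of letters, not a measured binding site. The IDH1, D2HGDH and DNMT1 starts are shown because the strongest summit of the gene lies inside the printed stretch. IDH1 is printed at chr2:208255062-208255321 (minus strand), D2HGDH at chr2:241734380-241734639 (plus strand) and DNMT1 at chr19:10194944-10195203 (minus strand).
IDH1: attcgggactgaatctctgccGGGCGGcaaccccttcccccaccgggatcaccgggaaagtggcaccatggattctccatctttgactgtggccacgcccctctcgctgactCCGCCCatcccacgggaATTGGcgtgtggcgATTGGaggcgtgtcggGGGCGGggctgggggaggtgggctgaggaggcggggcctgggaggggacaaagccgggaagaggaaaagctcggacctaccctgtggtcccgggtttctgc
D2HGDH: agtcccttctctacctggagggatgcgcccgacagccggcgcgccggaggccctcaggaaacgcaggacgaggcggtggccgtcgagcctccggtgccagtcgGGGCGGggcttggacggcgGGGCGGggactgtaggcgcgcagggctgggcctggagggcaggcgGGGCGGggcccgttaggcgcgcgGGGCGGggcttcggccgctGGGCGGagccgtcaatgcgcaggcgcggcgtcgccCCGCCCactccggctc
DNMT1: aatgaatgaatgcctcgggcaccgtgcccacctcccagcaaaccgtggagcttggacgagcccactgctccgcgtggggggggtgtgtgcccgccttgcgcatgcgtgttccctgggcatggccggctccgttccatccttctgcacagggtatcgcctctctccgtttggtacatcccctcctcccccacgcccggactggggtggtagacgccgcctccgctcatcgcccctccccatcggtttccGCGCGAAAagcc

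TET1, DNMT3A and TET3 are shown because their annotated starts differed in accessibility. The 5′ start of TET1 is at chr10:68560087-68560346 and the first of its 2 internal starts at chr10:68600018-68600277 (plus strand). The 5′ start of DNMT3A is at chr2:25342581-25342840 and the first of its 3 internal starts at chr2:25252306-25252565 (minus strand). The internal start of TET3 is at chr2:74002442-74002701 (plus strand), and its summit lies inside the printed stretch. No summit lies inside the printed stretches of TET1 or DNMT3A.
TET1 5′ start: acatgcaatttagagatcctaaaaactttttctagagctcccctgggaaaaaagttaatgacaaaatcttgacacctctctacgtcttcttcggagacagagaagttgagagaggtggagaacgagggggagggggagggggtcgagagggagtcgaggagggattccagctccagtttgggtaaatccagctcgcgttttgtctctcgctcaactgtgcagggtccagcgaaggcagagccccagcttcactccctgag
TET1 first internal start: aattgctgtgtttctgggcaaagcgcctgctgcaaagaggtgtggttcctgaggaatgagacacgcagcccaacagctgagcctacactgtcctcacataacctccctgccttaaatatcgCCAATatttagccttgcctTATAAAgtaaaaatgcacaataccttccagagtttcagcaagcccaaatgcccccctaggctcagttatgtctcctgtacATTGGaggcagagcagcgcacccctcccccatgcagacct
TET3 internal start: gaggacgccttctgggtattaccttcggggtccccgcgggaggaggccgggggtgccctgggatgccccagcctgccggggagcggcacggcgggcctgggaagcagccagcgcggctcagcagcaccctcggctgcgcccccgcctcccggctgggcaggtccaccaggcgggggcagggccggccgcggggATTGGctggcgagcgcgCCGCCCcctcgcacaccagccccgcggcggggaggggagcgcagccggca
DNMT3A 5′ start: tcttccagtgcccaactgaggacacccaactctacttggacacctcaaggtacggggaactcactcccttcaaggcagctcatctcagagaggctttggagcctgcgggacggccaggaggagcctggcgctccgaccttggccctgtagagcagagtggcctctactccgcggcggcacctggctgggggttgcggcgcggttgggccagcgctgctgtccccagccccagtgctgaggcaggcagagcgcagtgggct
DNMT3A first internal start: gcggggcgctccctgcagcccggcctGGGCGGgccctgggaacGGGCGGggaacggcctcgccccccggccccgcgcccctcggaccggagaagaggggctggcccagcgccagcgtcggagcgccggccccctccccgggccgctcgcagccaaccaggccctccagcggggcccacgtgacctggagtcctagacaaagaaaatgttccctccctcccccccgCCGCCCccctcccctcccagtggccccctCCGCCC

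The windows differed in composition. Counted over the full 300 bases, D2HGDH had 43 CpG dinucleotides and 78.3% G and C, and IDH1 had 20 and 64.7% at its 5′ start. The 5′ start of TET1 had 10 CpG, its first internal start 6 and its second, whose window holds the summit there, 11, all below the median of 14 over all 35116 windows. DNMT3A had 18, 26 and 46 at the 3 starts near its 5′ end and 28, 26 and 18 at the 3 internal ones. The start with 46, which is not printed, held 3 GC boxes, and the other starts near the 5′ end held none. D2HGDH held 6 GC boxes, all in the printed stretch, and IDH1 held 3 GC boxes and 2 NF-Y matches at its 5′ start. A GC box was present in 11 of the 19 windows of the 9 genes and in 45.0% of all windows. The NF-Y letters were in 5 of the 19 and in 34.6% of all. DNMT1 held the E2F letters, which begin 2 bases before its start and occur in 1.79% of all windows. The first internal start of TET1 held TATAAA, beginning 110 bases before it, and the second did not; the string was found in 11.5% of windows. The ETS, CRE, AP-1, NRF1 and YY1 strings matched none of the 19 windows and were present in 10.3%, 1.85%, 7.71%, 1.24% and 3.0% of all windows. The 5′ ends of IDH2, TET3 and DNMT3B have no window among the 19, so the sequence there was not searched. Windows of close starts overlap, as at the internal starts of DNMT3A, so the same match can count in more than 1 window.

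Each of the 9 genes had at least 1 summit within 1000 bp of an annotated start, a distance called near a start below. The same held for 69.0% of the 15841 protein-coding genes with a start in the promoter table. All 9 also had one within 500 bp (65.5% of those genes), within 2500 bp (74.2%), at a −log10 q of at least 10 (64.3%), and by overlap of the interval itself (70.3%). Counting the 5′ end of the gene alone, a setting chosen after seeing the data, 8 did, all but TET3, beside 63.7%. The median over the 9 of the highest enrichment near a start was 11.5, beside 12.3 for the 10932 protein-coding genes with such a summit. The 9 were chosen by name and are not a random sample, so no interval is given. IDH1 and DNMT1 lay above that median and the other 7 below it. In the distribution of start summits, the 9 genes spanned the range from 6.82 to 14.5.

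**Figure D1:**
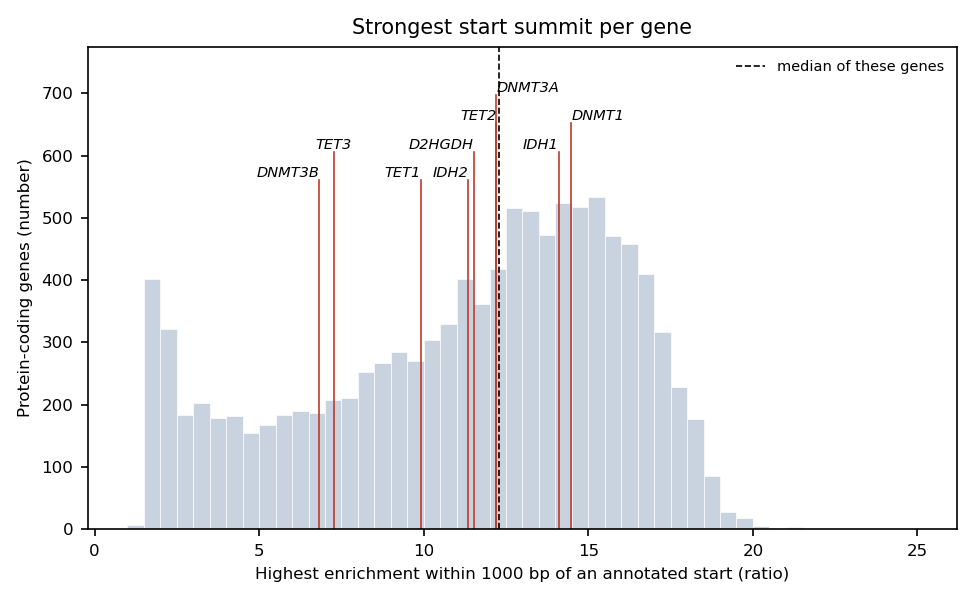
The histogram counts protein-coding genes (vertical axis) by the highest enrichment within 1000 bp of an annotated start (horizontal axis, ratio); red lines mark the 9 genes and the dashed line the median of the 10932 genes, 12.3. IDH1 and DNMT1 lie right of the median, and DNMT3B lies farthest left at 6.82.

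Of the 73 summits, 15 were near a start (20.5%), 46 in gene bodies, 5 upstream and 7 downstream. Over all protein-coding genes 19.9% of the summits in the same window were near a start. Near starts the medians were 7.26 in enrichment and 271 fragments in pileup. Away from starts, the 58 summits had medians of 2.50 in enrichment and 67 fragments in pileup. The corresponding medians of enrichment for all protein-coding genes were 10.5 near and 3.80 away. Enrichment exceeded 5 at 15 of the 58 summits away from starts (25.9%), compared with 38.8% for all such genes. The plot of summits along each gene shows the 3 of the 58 that exceeded 10, in TET1, TET3 and DNMT3A. The share above 10 over all protein-coding genes was not computed.

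**Figure D2:**
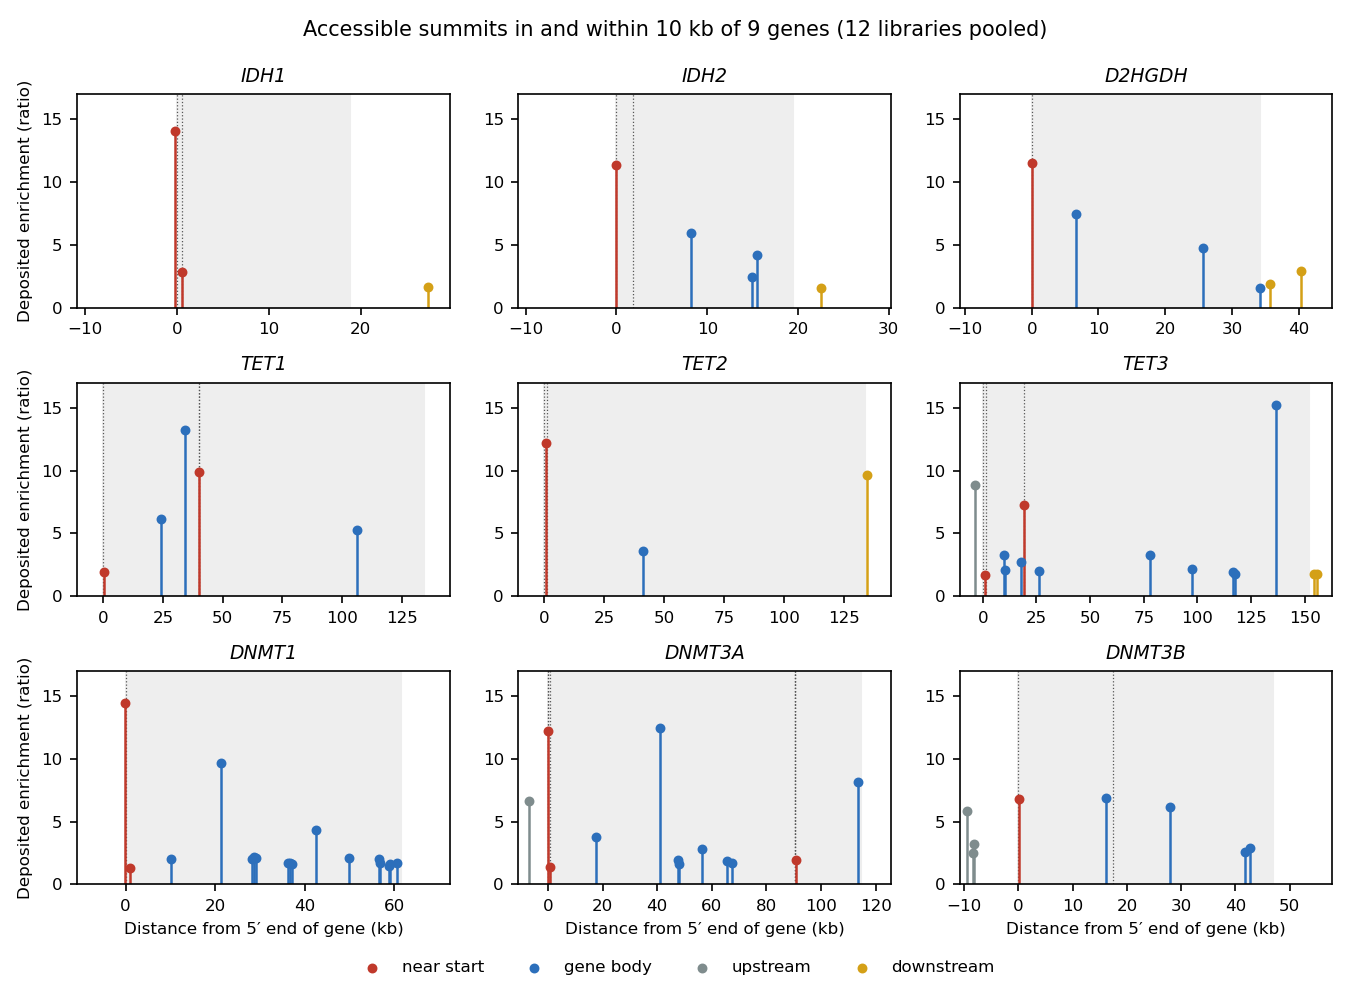
Each panel shows 1 gene, with the distance from its 5′ end in kb on the horizontal axis and the deposited enrichment of each summit (ratio) on the vertical axis; grey shading is the gene, dotted lines are annotated starts and colours give the position class. IDH1, DNMT1, D2HGDH, IDH2 and TET2 have their highest summit near a start, and TET1, TET3, DNMT3A and DNMT3B have theirs inside the gene, away from a start.

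IDH1, the gene mutated in this line, lies on chromosome 2 from 208236227 to 208255071 on the minus strand (gene ID 3417). It had 3 summits. The main one lay 196 bp upstream of the 5′ end, in the interval 208254225 to 208255642, with an enrichment of 14.1 from a pileup of 1145 (1080 to 1213). That enrichment was above those of 66.4% of the protein-coding genes with a start summit. It lay 34 bp inside IDH1-AS1, a long noncoding RNA gene that starts on the opposite strand, so the pooled signal cannot be assigned to either gene alone. A second summit in the same interval, 48 bp upstream of the start listed 0.613 kb farther in, had an enrichment of 2.81 from a pileup of 226 (197 to 257). The third, 8491 bp past the 3′ end, had 1.69 and 35. No summit lay elsewhere in the gene body.

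IDH2 lies on chromosome 15 from 90083045 to 90102468 on the minus strand (gene ID 3418) and had 5 summits. Its strongest was 37 bp upstream of the 5′ end, with an enrichment of 11.4 from a pileup of 822 (767 to 880), in the interval 90102056 to 90102884. The summit lay 373 bp inside IDH2-DT, a noncoding gene that starts on the opposite strand, so IDH1 and IDH2 each shared their strongest site with a noncoding neighbour. The internal start that RefSeq lists 1.847 kb downstream had no summit within 1000 bp; the nearest was 1884 bp off. In the body, 3 summits had enrichments of 5.93, 4.20 and 2.48, with pileups of 215, 164 and 95. The pileup interval of IDH2 at its start did not overlap that of IDH1. These intervals hold counting error only, with no spread between libraries, so a difference between the genes was not tested. The backgrounds were 71.5 fragments for IDH2 and 80.3 for IDH1. Gene copy number in the line was not analysed here.

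D2HGDH lies on chromosome 2 from 241734630 to 241768811 on the plus strand (gene ID 728294) and has 1 annotated start. The summit 30 bp upstream of it, in the interval 241734188 to 241735216, had an enrichment of 11.5 from a pileup of 996 (935 to 1060). A summit 6620 bp into the gene had 7.48 and a pileup of 385 (347 to 425), and another 25656 bp in had 4.74 and 156. The other 3 lay at or past the 3′ end, with enrichments of 1.55 to 2.93.

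TET1 showed its strongest sites inside the gene. It lies on chromosome 10 from 68560337 to 68694487 on the plus strand (gene ID 80312). At the 5′ end, the single summit, 359 bp downstream, had an enrichment of 1.92 from a pileup of 40 (28.6 to 54.5) over the genome-wide background. At the pair of internal starts, 39.9 and 40.1 kb downstream, a summit 26 bp past the second of them had 9.91 and a pileup of 271 (240 to 305). The highest summit of the gene lay between the 5′ end and these starts, 34.3 kb from the 5′ end and 5606 bp before the first internal start, with 13.2 and 475 (433 to 520), in the interval 68594329 to 68595030. Summits 24.0 kb and 106.1 kb into the gene had 6.14 and 5.30. The Poisson intervals at the 5′ end and at the internal starts did not overlap, by counting error only. A shorter TET1 protein made from an internal promoter, without the CXXC domain that binds unmethylated CpG, is known from other work; which transcript these cells make was not measured.

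TET2 lies on chromosome 4 from 105145875 to 105279803 on the plus strand (gene ID 54790). It is the TET enzyme without a CXXC domain of its own. Its 3 summits were the fewest per length among the 9 genes, 1.95 per 100 kb, counting 10 kb on either side. The strongest lay 115 bp upstream of the second annotated start and 886 bp downstream of the first, in the interval 105146338 to 105147120, with an enrichment of 12.2 from a pileup of 356 (320 to 395). It was also inside LOC124900868, a predicted protein-coding locus that overlaps this end of TET2. A summit 776 bp past the 3′ end had 9.69 and a pileup of 239 (210 to 271), and it lay within the antisense gene TET2-AS1, as did the body summit with 3.56 and 75.

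TET3 had 14 summits on chromosome 2, in and around the gene from 73983631 to 74135498 on the plus strand (gene ID 200424). Near its 5′-most annotated position no summit lay within 1000 bp; the nearest was 1014 bp off. The start that RefSeq lists 1.279 kb downstream had a summit 265 bp before it with an enrichment of 1.66 from a pileup of 77 (60.8 to 96.2). The start 19.1 kb into the gene had a summit 15 bp before it with 7.26 and 482 (440 to 527). A site 3789 bp upstream of the gene, inside the noncoding gene DGUOK-AS1, had 8.87 and 368. The highest summit of TET3, and of all 9 genes, lay 136.8 kb into the gene with an enrichment of 15.2 from a pileup of 842 (786 to 901), in the interval 74120008 to 74120683. It is 93 bp outside FNBP1P1, a pseudogene, and whether reads there also match other copies of that sequence was not tested. The other 10 summits had enrichments of 1.74 to 3.31.

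DNMT1, the maintenance methyltransferase, had the strongest start summit. It lies on chromosome 19 from 10133346 to 10194953 on the minus strand (gene ID 1786). The summit 30 bp upstream of its single annotated start had an enrichment of 14.5 from a pileup of 1493 (1418 to 1571), in the interval 10193909 to 10195341, over a background of 102.1 fragments. DNMT1 also had the most summits, 17, and the highest density, 20.8 per 100 kb, above 96.0% of the protein-coding genes. Several shared an interval: counted once each, its intervals were 10, beside 12 for TET3 and 10 for DNMT3A. Most were weak: 8 had an enrichment below 2, and 3 remained at a −log10 q of at least 10. Those 3 were the start summit, one 21.3 kb into the gene with 9.68 and 283 (251 to 318), and one 42.6 kb in with 4.30 and 123.

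DNMT3A had its accessible start at the 5′ end, the reverse of TET1 and TET3. It lies on chromosome 2 from 25227874 to 25342590 on the minus strand (gene ID 1788) and has 6 annotated starts. The summit 45 bp downstream of the 5′ end had an enrichment of 12.2 from a pileup of 800 (746 to 857), in the interval 25341954 to 25342826. The 3 starts 90.3 to 90.5 kb downstream had 1 summit near them, 409 bp past the last, with 1.92 and 42 (30.3 to 56.8). A short form, DNMT3A2, best known from embryonic stem and germ cells, is made from an internal start. Within the gene, a summit 40.9 kb from the 5′ end had 12.5 and 579 (533 to 628), in the interval 25301378 to 25302165. Ranked by enrichment it came first, and ranked by pileup or −log10 q the start came first. Further summits at 8.15, 113.6 kb from the 5′ end, and at 6.62, 6987 bp upstream, were the next highest.

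DNMT3B, the other de novo enzyme, had the lowest start summit of the 9 genes. It lies on chromosome 20 from 32762385 to 32809356 on the plus strand (gene ID 1789). The summit 101 bp downstream of the 5′ end had an enrichment of 6.82 from a pileup of 249 (219 to 282), in the interval 32762036 to 32762915. The enrichment was above those of 20.9% of protein-coding genes with a start summit. Sites of like height followed: one 16.2 kb into the gene had 6.92 and 211 (183 to 241), one 27.9 kb in had 6.17 and 144, and one 9465 bp upstream had 5.89 and 188. The intervals of the first pair of pileups overlap, so their order is not resolved. The internal start 17.5 kb into the gene had no summit within 1000 bp; the nearest, 1234 bp off, was the one with 6.92.

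In order of pileup near a start, DNMT1 came first, followed by IDH1, D2HGDH, IDH2, DNMT3A, TET3, TET2, TET1 and DNMT3B. The Poisson intervals of neighbours overlapped for IDH2 with DNMT3A and for TET1 with DNMT3B, and for no other neighbours. Such intervals hold counting error only, with no spread between libraries, so intervals that do not overlap do not establish the order, which was not tested. How often they overlap between other protein-coding genes was not computed. DNMT1, IDH1 and D2HGDH lay above the median of 822 fragments for protein-coding genes with a start summit, IDH2 at it, and DNMT3A below it. The 3 TET genes and DNMT3B, with 249 to 482 fragments, were the lowest. The plot of pileup against background shows that pileup and enrichment ordered the genes differently. TET2, with a background of 28.3 fragments, and DNMT3A, with 64.6, had the same enrichment of 12.2 from pileups of 356 and 800. In all, 65 of the 73 summits had a background more than 0.2% above the genome-wide one, while 53.0% of all lines in the list lay within 0.2% of it. The share for summits in the windows of all protein-coding genes was not computed.

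**Figure D3:**
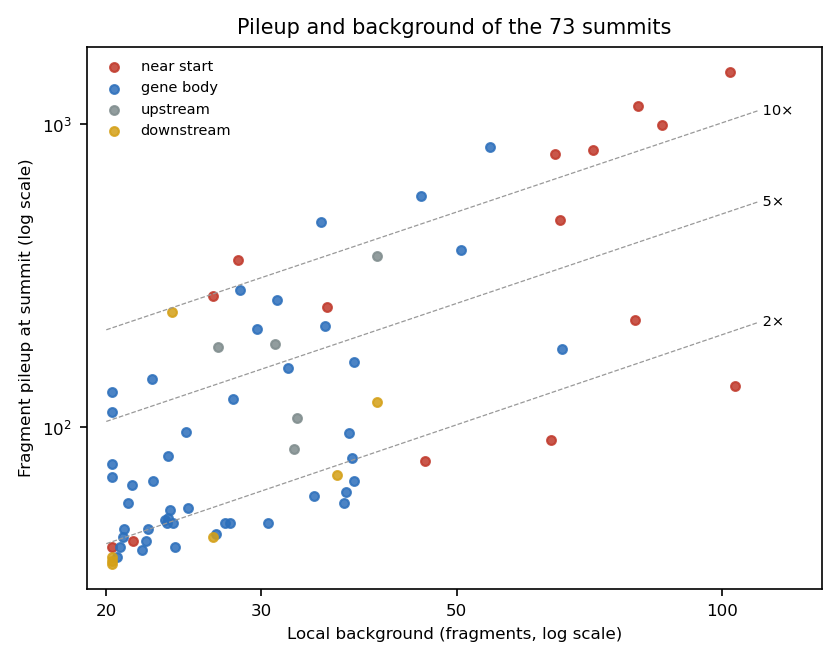
Each point is 1 of the 73 summits, with the local background on the horizontal axis and the pileup on the vertical axis, both in fragments on log scales; dashed lines mark enrichments of 2, 5 and 10 and colours give the position class. The start summits of DNMT1 (1493 over 102.1) and IDH1 (1145 over 80.3) are the uppermost points.

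Among the 22 annotated starts of the 9 genes, 19 had a summit within 1000 bp. Close starts of a gene can share a summit, as in IDH1, TET1, TET2 and DNMT3A, so these are not 19 separate sites. The same share over all annotated starts was not computed. The plot of annotated starts shows 3 without one, in IDH2, TET3 and DNMT3B. Of the 4 genes with a start more than 2000 bp downstream of the 5′ end, TET1 and TET3 were more accessible at the internal start, and DNMT3A and DNMT3B at the 5′ end. For DNMT3B this depends on the 1000 bp limit: a limit of 2500 bp gives the internal start 6.92, beside 6.82 at the 5′ end, from pileups with overlapping intervals. An internal start was the stronger one in 47.5% of the 2144 protein-coding genes of that kind with a summit near either, so the split among the 4 is close to the background. Counting an internal start more than 2 times stronger, or the only one with a summit, gave the same TET1 and TET3, beside 37.5% of those 2144 genes. Likewise, in 4 of the 9 genes (TET1, TET3, DNMT3A and DNMT3B) the highest summit lay away from any start, beside 38.5% of the 9492 protein-coding genes with summits of both kinds.

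**Figure D4:**
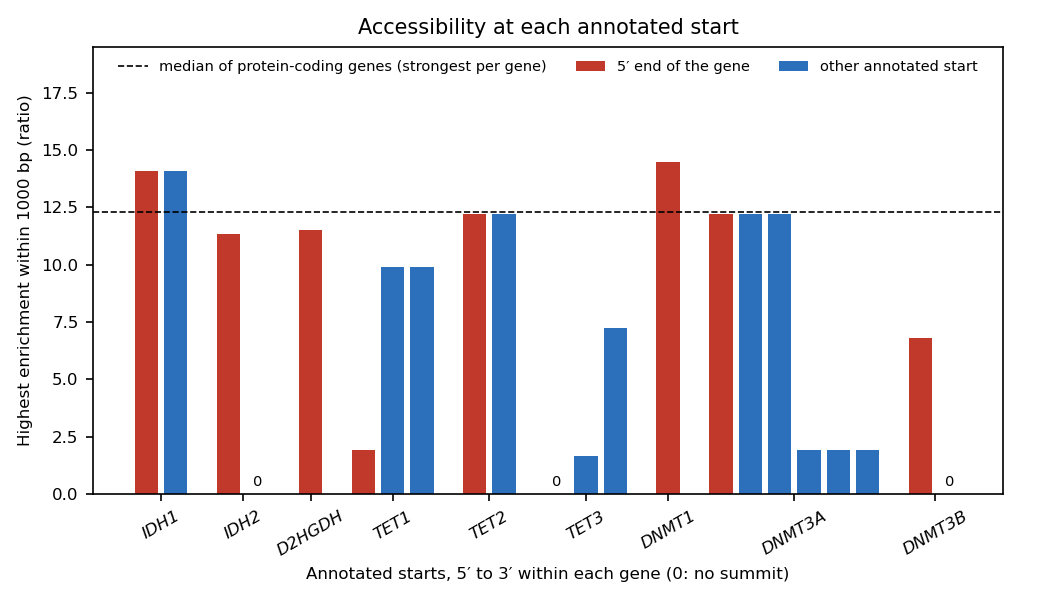
Bars give the highest enrichment (ratio) within 1000 bp of each annotated start, ordered 5′ to 3′ within each gene; red is the 5′ end of the gene, blue any other start, 0 no summit, and the dashed line is the protein-coding median of 12.3. TET1 rises from 1.92 at its 5′ end to 9.91 at the internal starts, and DNMT3A falls from 12.2 to 1.92.

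Other genes of the same pathways were described from 4 lists. Of 50 listed genes 41 had an annotated start in the promoter table, and 40 of these had a summit near it, beside 69.0% of all protein-coding genes. Counting the 5′ end of the gene alone, a setting chosen after seeing the data, 35 of the 41 did, beside 63.7%. Within 1000 bp of either gene end, also chosen then, 43 of all 50 had a summit, beside 65.7%. In the list for 2-oxoglutarate and 2-hydroxyglutarate metabolism all 13 matched genes had one, with a median enrichment of 13.9. CS, the citrate synthase gene, was highest with 17.1, and PHGDH, which makes serine from a glycolytic intermediate, was lowest with 8.51. The subunit genes of the NAD-dependent isocitrate dehydrogenase, which were not the extremes, had 14.3 (IDH3A), 9.77 (IDH3B) and 16.7 (IDH3G).

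Genes that remove oxidised methylcytosine or partner TET proteins had a summit near a start in 10 of 10 matched cases, with a median of 11.8. TDG, the glycosylase that excises oxidised forms of methylcytosine, had 17.7 with a pileup of 2062. NEIL1, another glycosylase of base excision repair, was lowest with 1.47. SMUG1 and NEIL2 were not matched. Of 11 matched partners of the methyltransferases, 10 had a start summit, with a median of 12.5. Within 1000 bp of either gene end, 8 of the 12 listed partners had a summit, near the 65.7% of all protein-coding genes. By that count each of the other lists lacked 1 gene. PCNA, the replication clamp that helps recruit DNMT1, had 15.9, and NSD1, which methylates histone H3 lysine 36, had 4.88 near its listed starts and 17.5 at its highest summit in the 10 kb window. DPPA3, a germline and early-embryo gene, had no summit in or within 10 kb of the gene, and DNMT3L was not matched. All 7 matched readers of methylated CpG had one, with a median of 12.1, from ZBTB38 with 7.08 to MBD2 with 18.3.

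**Figure D5:**
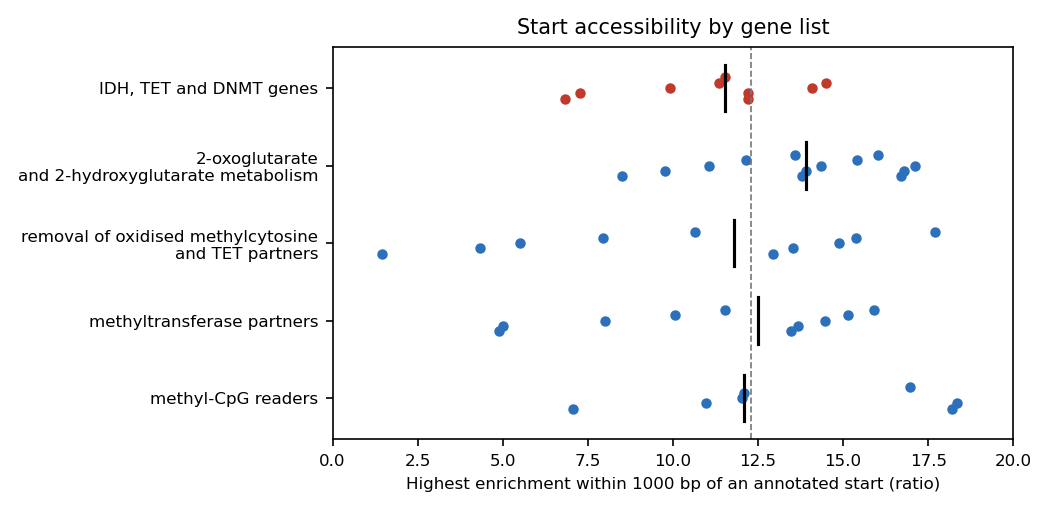
Points are genes, placed by the highest enrichment (ratio) within 1000 bp of an annotated start; black bars are list medians and the dashed line is the protein-coding median of 12.3. The list for 2-oxoglutarate and 2-hydroxyglutarate metabolism has the rightmost median, 13.9, and the 9 genes described here have a median of 11.5.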

How the data were processed

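Chromatin accessibility was measured in 12 ATAC-seq libraries of HT1080 cells. The submitters' processing notes name fastp 0.20.0, Bowtie2 2.4.3, deepTools 3.5.0, SAMtools and MACS2 2.2.7.1 with build hg38, without settings. The deposited list has 10 columns and pools all libraries. In it the authors give an enrichment (a ratio to the local background), a score, and p and q on the −log10 scale. Pileup and background were solved from enrichment = (pileup + 1)/(background + 1) and an upper-tail Poisson p, a model that no label states. It was checked on the deposited values by the share of whole-number pileups. Simulated data made with the same equations tested only the solving, not the model. Summits were matched to RefSeq GRCh38.p14 genes. A start is a start listed in the RefSeq promoter table or the 5′ end of the gene. Shares of genes near a start use the 15841 protein-coding genes with a listed start; percentiles of enrichment use the 10932 of them with a start summit, and the either-end share uses all 20033. Python 3.11.15, scipy 1.17.1 and pandas 2.3.3 were used.

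The members and lists were chosen with earlier results of these data known. All 9 members are named. Of other genes, those with an end within 1000 bp of a member's summit, the highest and lowest of each list, and up to 4 without a start summit are named; genes overlapping a member's summit, the IDH3 subunits, unmatched genes and the line-check genes were added after values were seen. Some listed genes are not reported here. No test was run: comparisons are descriptions of 1 pooled list. Alternatives changed the window, the start distance, the q threshold, the unit counted and the ranking measure.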

Additional observations from a re-analysis of the deposited data

How the results depend on the processing

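No paired analysis was possible because the list pools all libraries and has no value per replicate; for the same reason no replicate could be left out. The total of 73 summits became 129 with a window of 50 kb and 39 at a −log10 q of at least 10; it stayed within 1.5 times with the other alternatives. With pileup in place of enrichment the median over the 9 genes near a start was 800 fragments, a change of unit. Of 22 alternative values that answer a comparison, 19 stayed within their limits. The count of 9 genes with a start summit fell to 8, losing TET3, for either gene end, and for the 5′ end alone, a setting chosen after seeing the data. For single genes 15 of 45 counts moved by over 1.5 times, DNMT1 most, from 17 to 3 at the stricter q. Ranked by pileup or −log10 q, the strongest summit was the same in 7 of 9 genes, and moved to the 5′ end in DNMT3A and DNMT3B. Just inside the 10 kb limit lay a summit 9465 bp from DNMT3B (enrichment 5.89), and just outside one 10149 bp from D2HGDH (1.56) and one 10545 bp from DNMT3B (12.4). Depth per library is unknown, so weak sites below the list's q threshold may be missed.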
